A study of Mus musculus with 6 samples.

Results

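The late sperm genes are 10 genes that male germ cells use late in sperm development: Prm1, Prm2, Tnp1, Tnp2, Acrv1, Acr, Odf1, Smcp, Ldhc and Pgk2. They were taken as every probe of the authors' processed array matrix whose Agilent or Ensembl symbol equals one of these names, which gave 13 of 41174 probes and 10 of 21749 gene symbols. Expression was measured in medullary thymic epithelial cells (mTECs) of Mbd1 knockout (KO) and Mbd1 wild type (WT) mice, all 30 days old, with 3 arrays per genotype. The cells were sorted live as EpCAM+ and MHC class II+, without CD45, CD11c or Ly51. Their RNA was amplified as whole transcriptome and hybridised with Cy3 to Agilent mouse arrays. Each genotype had 4 biological replicates, and the authors left 1 of each out because it failed their quality control. The sources used here do not give strain, sex, the deleted part of Mbd1 or whether a replicate pooled animals, so the p-values measure only the spread between these samples.

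The mTEC is the thymic cell that transcribes genes of other organs, testis genes among them, so that developing T cells that recognise those proteins can be removed. Mbd1 binds methylated CpG sites in DNA. In the testis the late sperm genes serve a haploid cell that is being rebuilt. Transition proteins and then protamines replace the histones of its nucleus, an enzyme-filled acrosome forms over it, a tail with dense fibres and a mitochondrial sheath grows, and its energy supply shifts to sperm isozymes. Many of these genes are switched on in mouse spermatids by CREM, a factor of the cAMP response family.

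The columns of the matrix and the titles of the scanner files disagree, and every direction below is that of the matrix column names. By the ranks of 40929 probes spotted once, 5 of the 6 columns were identical to a scanner array. In 0 of these the titles were the same, and in 4 the array's title named the other genotype. KO column 1 matched no array. The Mbd1 probe that changed most read 5.64, 5.61 and 5.60 in KO columns 1 to 3, against 8.83, 8.60 and 9.0 in WT columns 1 to 3, on the log2 scale. On the arrays titled KO 1 to 3 that probe had a processed intensity of 356, 17.2 and 682, against 20.9, 305 and 15.6 on those titled WT 1 to 3. For that probe the low values thus lay in all KO columns, but on 1 array titled KO and 2 titled WT. By rank, the low arrays titled WT 1 and WT 3 were KO columns 2 and 3. The arrays on which the probe was high were the WT columns. The Mbd1 probe A_52_P158923 gave the same split of the arrays, while A_52_P131423 read 75.7, 93.3 and 91.5 on the arrays titled KO, against 26.02, 63.3 and 28.1 on those titled WT, highest on the array titled KO 2. In the columns A_52_P131423 differed by -0.98 (SE 0.19, adjusted p = 0.125).

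The cells carried their defining markers. All 10 mTEC markers (among them Epcam, Aire, Krt14 and Ciita) were well above background, with a mean of 12.39 to 12.49 in the KO columns and 12.42 to 12.48 in the WT columns, and 0 of them passed between the genotypes. The list means of thymocytes, of dendritic cells and macrophages and of cortical epithelium were higher in the KO columns. Those of B cells and of stroma and vessels overlapped between the genotypes. Of 9 measured thymocyte markers 8 had a positive difference, KO minus WT, 5 of them without overlap (8.25% of all genes did not overlap in either direction), and the mean of the list was 8.34 to 8.72 in KO columns and 7.78 to 8.05 in WT columns. Of 7 markers of dendritic cells and macrophages 6 had a positive difference, 4 of them without overlap. Their list means were 8.62 to 8.66 in KO columns and 8.02 to 8.47 in WT columns. Of 6 markers of cortical epithelium 5 had a positive difference, and without overlap 2 lay above and 1 below. Of all kept probes, 48.2% had a positive difference. For 6 B cell markers the means were 8.07 to 8.38 in KO and 7.73 to 8.21 in WT columns, for 6 markers of cortical epithelium 10.41 to 10.46 and 10.04 to 10.30, and for 5 of stroma and vessels 8.39 to 8.66 and 8.22 to 8.53. Of the markers in these 6 lists 0 passed over all probes, and Rag2 was the marker below the filter. The part of other cells in the values below was not tested, and in a sorted pool a change in the number of expressing cells cannot be told apart from a change of RNA per cell.

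The 5′ ends of the genes are shown first, because Mbd1 binds CpG sites and CREM binds elements of the form TGACGTCA or close to it. RefSeq (GRCm38.p6) gave a window of 250 bases before to 50 bases after an annotated start for 8 of the 10 genes, 9 windows in all. The windows held 0 to 9 CpG sites, 8 of the 9 below the median of 7 over all 32851 RefSeq windows (quartiles 3 and 20). Smcp had 0, Prm1 and Acrv1 had 1 each, Prm2 had 3, Pgk2 and Tnp2 had 4 each and Tnp1 had 6; Ldhc had 9 at its first annotated start and 3 at another. Methylation was not measured. The full palindrome TGACGTCA was in 0 of the 8 genes and in 1.79% of all windows. The looser TGANNTCA, which reads the same on both strands and contains it, was in 4 of the 8 genes and in 14.1% of all windows. The matches were TGACTTCA in Prm1, TGATGTCA in Tnp1 and in Smcp, and TGAACTCA in Pgk2. TGACG, searched on both strands, was in Ldhc alone among the 8 and in 20.8% of all windows. The stretches below are those of genes with a probe whose KO and WT columns did not overlap. Ldhc is added for its pair of TGACG matches. Each runs 5′ to 3′ with the match in capitals. The Prm1 probe A_51_P162984 did overlap. Pgk2, with a match at -27 and overlapping columns, is not printed. A link between a match and a difference was not tested. Prm1 (chr16:10796824-10796973, minus strand) and Tnp1 (chr1:73015900-73016049, minus strand) are the 150 bases before the start, with the match beginning at -64 and -94. Smcp (chr3:92589031-92589060, minus strand) is 30 bases around a match that begins at base 25 after the annotated start. Ldhc (chr7:46861113-46861262, plus strand) is the 150 bases before its first start.
Prm1: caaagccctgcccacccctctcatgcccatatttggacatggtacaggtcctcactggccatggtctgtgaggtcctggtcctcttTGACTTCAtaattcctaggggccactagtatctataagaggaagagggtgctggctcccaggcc
Tnp1: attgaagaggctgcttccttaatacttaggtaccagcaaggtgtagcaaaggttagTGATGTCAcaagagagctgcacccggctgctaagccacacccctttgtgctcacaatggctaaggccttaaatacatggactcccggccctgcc
Smcp: ggagagtattaTGATGTCAtaaaagagctg
Ldhc: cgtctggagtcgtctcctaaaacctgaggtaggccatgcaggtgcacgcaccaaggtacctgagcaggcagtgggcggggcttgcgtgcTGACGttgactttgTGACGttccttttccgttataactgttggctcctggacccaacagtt

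Most of the late sperm genes gave a signal in the sorted mTECs, as did most probes of the array. Probes that 3 or more of the 6 scanner arrays marked as well above background were tested, which held for 11 of the 13 late sperm probes (9 of the 10 genes) and 32235 of all 41174. Of the 13, 9 probes of 7 genes were well above background on all 6 arrays, as were 26168 of all 41174 probes. These calls include the array titled KO 2, which ranked as none of the columns. For KO column 1, which matched no array, there is no such call. The values of the matrix are log2 intensities without background subtraction, on which never detected probes had a 95th percentile of 5.50 to 5.64 in the KO columns and 5.50 to 5.67 in the WT columns, so differences of dim probes are understated. Between KO and WT columns, 0 of the 11 kept probes passed at an adjusted p of 0.05 (limma, Benjamini-Hochberg over all kept probes), where 0.177% of all kept probes did, 53 higher and 4 lower. At an unadjusted p under 0.05, 3 of the 11 passed, 2 higher and 1 lower, against 3.96% of all kept probes (2.15% higher and 1.81% lower). In 4 of the 11 the columns did not overlap, 3 with all KO columns above all WT columns and 1 below, against 8.14% of all kept probes (4.07% in each direction). The 11 probes had a median difference of 0.03, with 6 of them positive, against a median of -0.01 over all kept probes. The 3 Prm1 probes share a gene, so these counts are not of independent members. With 1 probe per gene (A_51_P162984 for Prm1), 1 of 9 genes lay without overlap above and 1 below. Of all genes, 8.25% did not overlap in either direction. At an unadjusted p under 0.05 (limma), 1 gene was higher and 1 lower, against 4.16% of all genes in either direction. In the authors' deposited table, which tests all 41174 probes, 0 of the 13 had an FDR under 0.05, against 0.0631% of all probes.

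**Figure D1:**
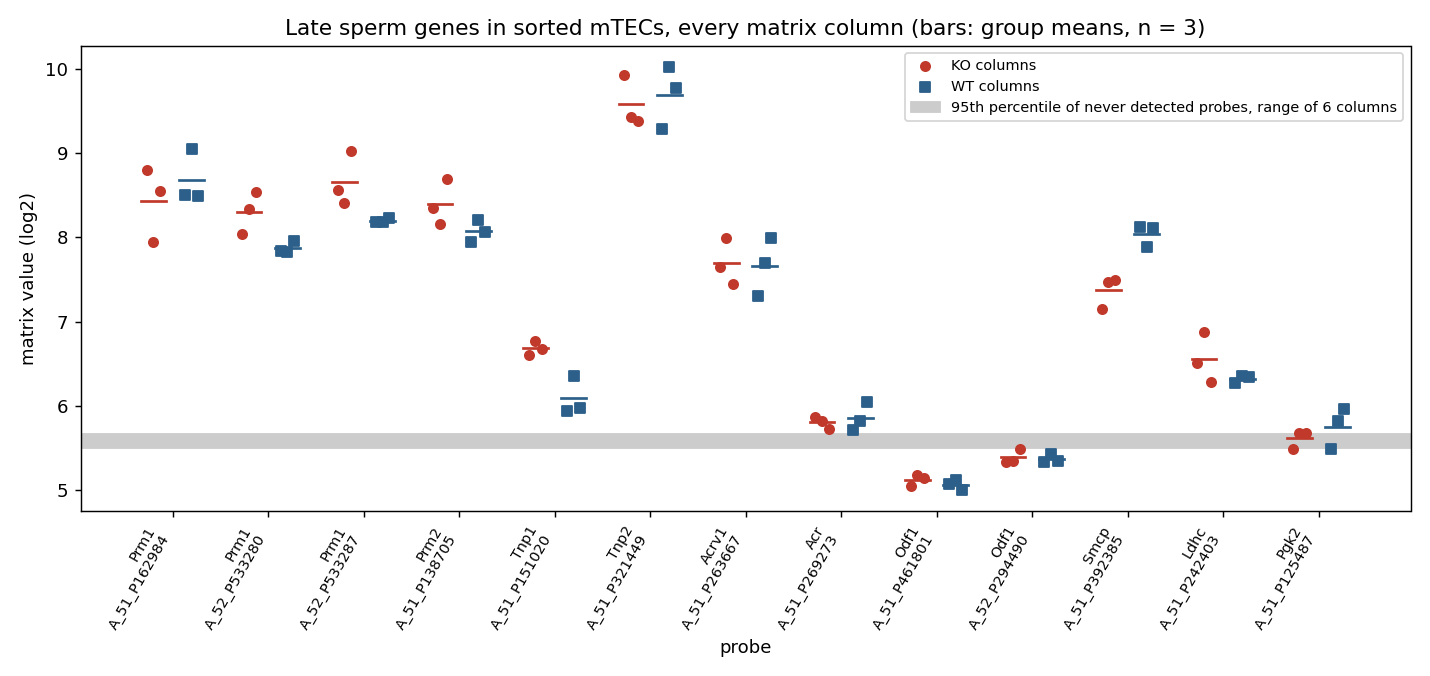
Matrix value (log2, vertical axis) of each of the 13 late sperm probes in the 3 KO columns (circles) and the 3 WT columns (squares), with group means as bars. The grey band is the range over the 6 columns of the 95th percentile of never detected probes. Both Odf1 probes lie under the band, Acr lies just above it, Pgk2 reaches from just under to above it, and Tnp1, Smcp and the Prm1 probes A_52_P533280 and A_52_P533287 show no overlap between KO and WT columns.

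Among the nuclear proteins, Tnp1 had the largest difference. Tnp1 (probe A_51_P151020, chromosome 1), the transition protein that binds DNA between histone removal and protamine loading, read 6.60, 6.77 and 6.68 in KO columns 1 to 3, against 5.94, 6.36 and 5.98 in WT columns 1 to 3. All KO columns lay above all WT columns, and the highest WT column was WT 2. The difference was 0.59 (SE 0.20, 95% interval 0.16 to 1.02, adjusted p = 0.866), a KO over WT ratio of 1.5 on this scale, and it did not pass. It lay between 0.51 and 0.72 when a column was left out, and at 0.78 with the slide as a block.

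Tnp2 (A_51_P321449, chromosome 16), the second transition protein, read 9.93, 9.43 and 9.38 in KO columns 1 to 3, against 9.29, 10.02 and 9.77 in WT columns 1 to 3. The columns overlapped and the highest and the lowest value were both of WT. The difference was -0.12 (SE 0.24, 95% interval -0.65 to 0.42, adjusted p = 1.0). Its sign turned to 0.05 without WT column 2 and to 0.11 with the slide as a block, so it had no settled direction.

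Prm1, the protamine that packs the sperm nucleus, was read by 3 probes, which disagreed. The probe A_52_P533280 read 8.04, 8.34 and 8.54 in KO columns 1 to 3, against 7.83, 7.83 and 7.96 in WT columns 1 to 3. The probe A_52_P533287 read 8.56, 8.41 and 9.02 in KO columns, against 8.19, 8.18 and 8.23 in WT columns. In both, every KO column lay above every WT column, and the SD was larger in KO (0.25 and 0.32) than in WT (0.07 and 0.03). Their differences were 0.43 (SE 0.20, 95% interval -0.0026 to 0.87) and 0.46 (SE 0.21, 95% interval 0.0047 to 0.92), each with an adjusted p of 1.0. When a column was left out, the first lay between 0.32 and 0.57 and the second between 0.28 (without KO 3) and 0.59. The probe A_51_P162984 read 8.80, 7.95 and 8.55 in KO columns, against 8.51, 9.05 and 8.49 in WT columns. Here the columns overlapped, KO 2 was the lowest and WT 2 the highest, and the difference was -0.25 (SE 0.26, 95% interval -0.81 to 0.32, adjusted p = 1.0). That value rested on single columns, at -0.0035 without KO 2, -0.063 without WT 2 and -0.43 without KO 1. By the matrix's own probe coordinates this probe spans 152 bases of chromosome 16, while the other 2 span 60 bases each. These are distances on the genome and not probe lengths. The cause of the disagreement was not tested.

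Prm2 (A_51_P138705, chromosome 16), the second protamine, read 8.35, 8.16 and 8.70 in KO columns, against 7.95, 8.21 and 8.07 in WT columns. Only KO 2 fell within the WT values. The difference was 0.33 (SE 0.21, 95% interval -0.13 to 0.78, adjusted p = 1.0), and it lay between 0.18 (without KO 3) and 0.45 when a column was left out. Prm1, Prm2 and Tnp2 lie beside each other on chromosome 16. The Prm1 probes A_52_P533280 and A_52_P533287 and Prm2 had their highest value of all columns in KO 3. Tnp2 and A_51_P162984 had theirs in WT 2. The nearest measured genes on either side of the cluster did not pass: Socs1, a brake on cytokine signalling, differed by 0.26 (SE 0.23; 0.081 without KO 3) and Rmi2, a protein of DNA recombination, by -0.04 (SE 0.21; 0.12 without KO 2). For Prm3, the remaining protamine-like gene of the cluster, no probe was found in the matrix.

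**Figure D2:**
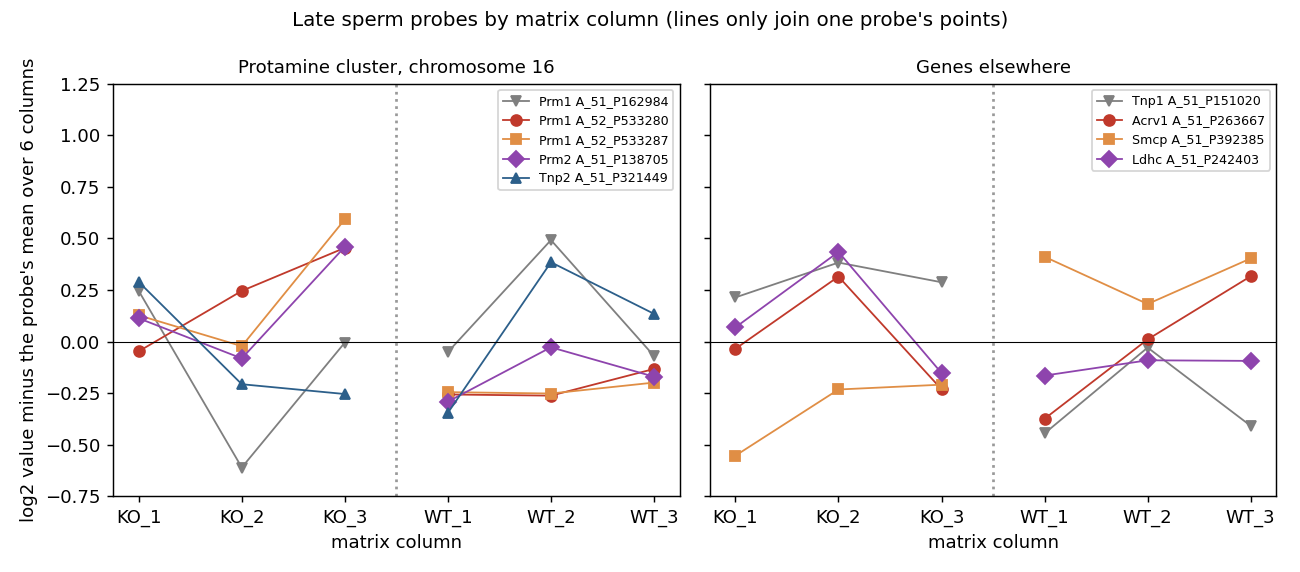
Log2 value of each probe minus its own mean over the 6 columns (vertical axis), by matrix column, for the protamine cluster of chromosome 16 (left) and for 4 genes elsewhere (right). Lines join the points of a probe within a genotype and carry no order. In KO 3 the Prm1 probes A_52_P533280 and A_52_P533287 and Prm2 are at their highest, while Tnp2 and the Prm1 probe A_51_P162984 are highest in WT 2.

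The acrosomal genes showed no separation of the genotypes. Acrv1 (A_51_P263667, chromosome 9), a protein of the acrosomal matrix, read 7.65, 8.0 and 7.45 in KO columns, against 7.31, 7.69 and 8.0 in WT columns. Its highest KO and highest WT columns were level, and the difference was 0.03 (SE 0.23, 95% interval -0.48 to 0.55, adjusted p = 1.0). Acr (A_51_P269273, chromosome 15), the serine protease acrosin, read 5.87, 5.82 and 5.73 in KO columns, against 5.71, 5.82 and 6.05 in WT columns. All 6 values lay just above the background level, and the difference was -0.06 (SE 0.19, 95% interval -0.47 to 0.36, adjusted p = 1.0). Acr was well above background on 5 of the 6 arrays.

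Smcp was the late sperm gene of smallest p. Smcp (A_51_P392385, chromosome 3), a cysteine-rich protein of the capsule around sperm mitochondria, read 7.16, 7.48 and 7.50 in KO columns 1 to 3, against 8.12, 7.89 and 8.11 in WT columns 1 to 3. Every KO column lay below every WT column, and the lowest was KO 1, the column that matched no array. The difference was -0.66 (SE 0.19, 95% interval -1.09 to -0.24, adjusted p = 0.605), a WT over KO ratio of 1.58 on this scale, and it did not pass. It lay between -0.74 and -0.55 when a column was left out, and at -0.63 in the slide block.

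The genes on either side of Smcp belong to the epidermal differentiation complex, a cluster of skin barrier genes. Ivl, the cornified envelope protein involucrin, is the nearest coding gene on the side of lower coordinates, and it read 9.19, 8.55 and 8.93 in KO columns, against 9.65, 9.24 and 9.32 in WT columns. Its KO columns too lay below all WT columns, with a difference of -0.51 (SE 0.22, adjusted p = 1.0). Lce1a1, a late cornified envelope protein and the nearest measured gene on the other side, differed by -0.40 (SE 0.25) with overlapping columns. Without KO column 2 Lce1a1 was at -0.16, and with the slide as a block Ivl was at -0.91. Over all late sperm genes, 16 such neighbours were measured and 0 passed. In 3 of them the KO columns lay below the WT columns and in 0 above, against 8.25% of all genes without overlap in either direction: Ivl, Ldha beside Ldhc, and Crisp3, a secreted cysteine-rich protein beside Pgk2, at -0.73 (SE 0.20, adjusted p = 0.456). The neighbours were looked up after the values of the late sperm genes were known.

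Odf1, a protein of the outer dense fibres of the sperm tail, was too dim to test. Its probe A_51_P461801 was well above background on 0 of 6 arrays and A_52_P294490 on 1, that titled KO 2. The first read 5.06, 5.18 and 5.14 in KO columns, against 5.08, 5.12 and 5.0 in WT columns, and the second 5.34, 5.34 and 5.49 in KO, against 5.34, 5.43 and 5.35 in WT. All of these lay below the background level of their column, so Odf1 gave no difference to call.

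Of the sperm isozymes, Ldhc stood above background and Pgk2 close to it. Ldhc (A_51_P242403, chromosome 7), the sperm lactate dehydrogenase, read 6.51, 6.88 and 6.29 in KO columns, against 6.28, 6.35 and 6.35 in WT columns. KO 2 was the highest and KO 3 fell among the WT columns, and the difference was 0.23 (SE 0.21, 95% interval -0.22 to 0.68, adjusted p = 1.0). Without KO column 2 it was 0.07. Pgk2 (A_51_P125487, chromosome 17), the sperm phosphoglycerate kinase, read 5.49, 5.68 and 5.68 in KO columns, against 5.49, 5.82 and 5.96 in WT columns. In each genotype 2 of the 3 columns exceeded the background level, and the difference was -0.14 (SE 0.20, 95% interval -0.58 to 0.30, adjusted p = 1.0). It lay between -0.27 (without WT 1) and -0.035 (without WT 3) when a column was left out. Their somatic counterparts did not pass either: Ldha differed by -0.17 (SE 0.18) with its KO columns below all WT columns, Ldhb by -0.11 (SE 0.19) and Pgk1 by 0.06 (SE 0.23). Pgk1 lay between -0.16 and 0.24 and Ldhb between -0.18 and -0.040 when a column was left out. The Gapdh probe was below the filter.

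**Figure D3:**
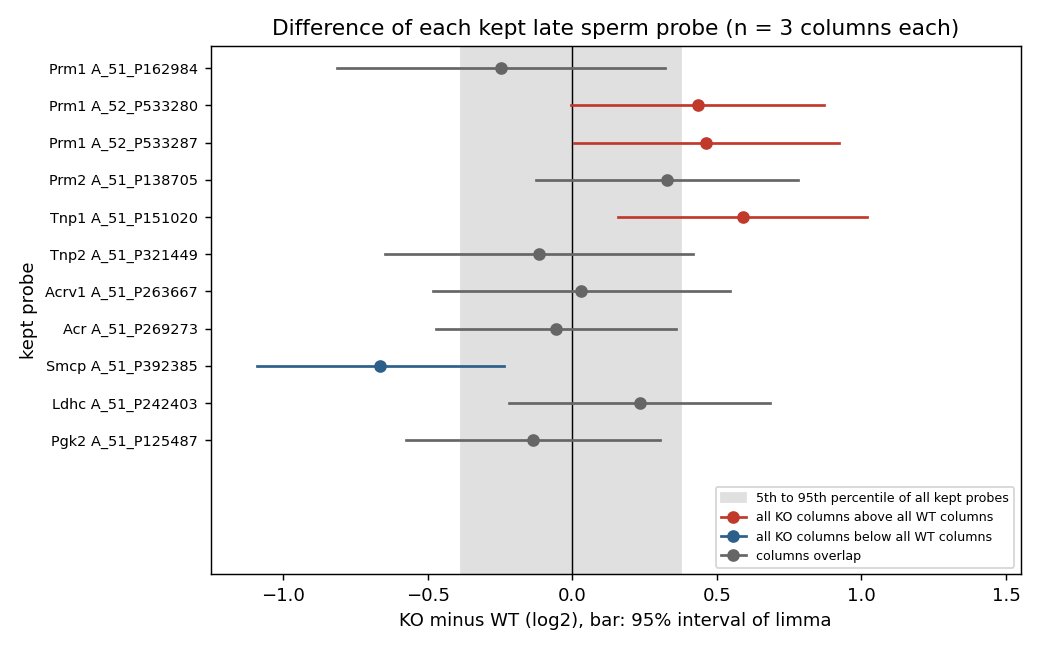
Difference KO minus WT (log2, horizontal axis) of the 11 kept late sperm probes with the 95% interval of limma, 3 columns per genotype. The shaded span holds the 5th to 95th percentile of all kept probes (-0.38 to 0.38). Tnp1 and the Prm1 probes A_52_P533280 and A_52_P533287 lie above the span and Smcp below it, while the other 7 lie within it.

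The scanner files give the same probes after background subtraction, as a ratio to the 75th percentile of the array. For Tnp1 this ratio was 0.152 and 0.158 on the arrays that rank as KO columns 2 and 3, against 0.0697, 0.104 and 0.0750 on those that rank as WT columns 1 to 3. For Smcp it was 0.344 and 0.394 on that KO pair, against 0.622, 0.530 and 0.670 on the arrays that rank as WT columns. These arrays are identical in rank to those columns, so the shared direction is no separate evidence. No test was made on arrays regrouped by rank. Under the titles as given, Tnp1 differed by -0.06 (SE 0.45) and Smcp by 0.28 (SE 0.32), each opposite in sign to the columns, and Tnp2 by 0.61 (SE 0.23, adjusted p = 0.997). By rank, the arrays titled KO 1 and KO 3 were WT columns 2 and 3. Those titled WT 1 and WT 3 were KO columns 2 and 3. The titles thus largely swap the genotypes of the columns, so an opposite sign is no separate check of a direction. By title, 0% of all kept probes passed, and 4.09% had an unadjusted p under 0.05. All arrays titled KO lay on 1 slide and all titled WT on another, so under the titles slide and genotype cannot be told apart. Among the matched columns, KO 2, KO 3 and WT 1 shared a slide, WT 2 and WT 3 the other, so with the slide as a block the difference rests on KO 2 and KO 3 against WT 1. For the Prm1 probes A_52_P533280, A_52_P533287 and A_51_P162984 that value was 0.61, 0.53 and -0.26, and for Prm2 it was 0.48.

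**Figure D4:**
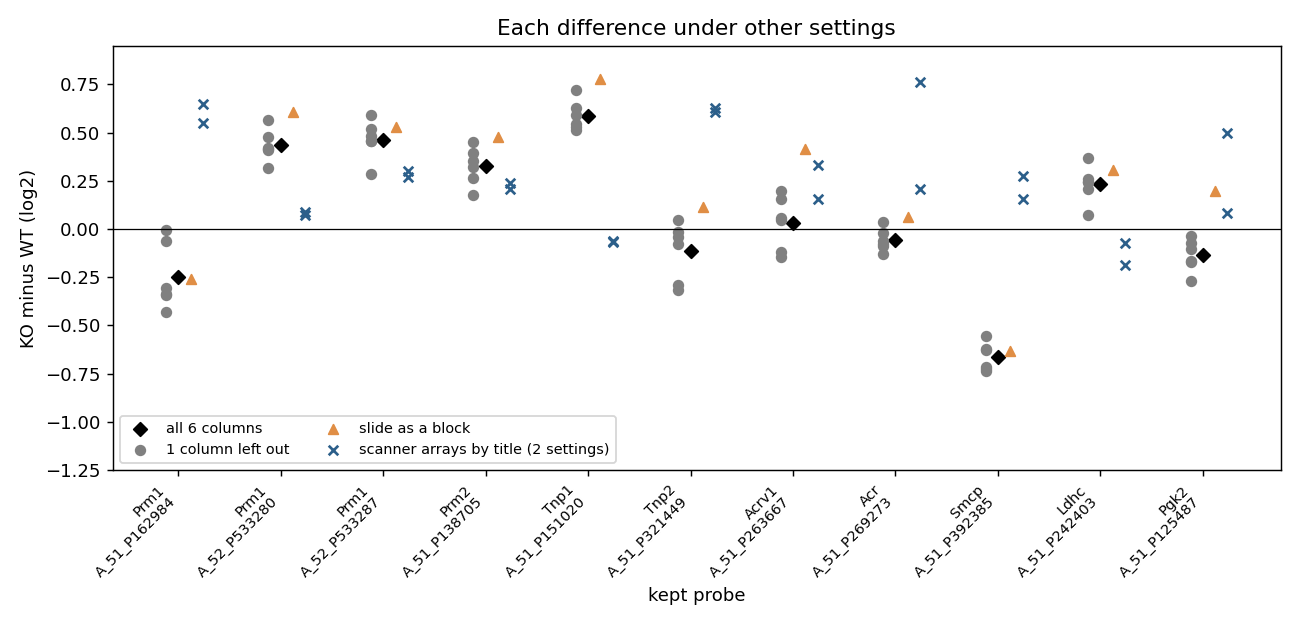
Difference KO minus WT (log2, vertical axis) of each kept probe with all 6 columns (diamonds), with 1 column left out (grey circles), with the slide as a block (triangles) and from the scanner arrays grouped by their titles (crosses). For Tnp1 and Smcp the matrix settings all keep the sign, at 0.51 to 0.78 for Tnp1 and -0.74 to -0.55 for Smcp, and the titled arrays lie on the other side of 0. Of the 5 arrays identical in rank to a column, 4 carry the title of the other genotype.

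In its course over the 6 columns, Tnp2, the kept member of highest mean, was most like H2-T23, a nonclassical MHC class I gene (Pearson's r 0.994), Ryr3, a calcium release channel (0.993), and the unnamed transcript F730014I05Rik (0.993). These are the best of all kept probes with a symbol over only 6 columns, and none of the 3 passed between the genotypes.

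Other genes of sperm development did not pass either. The 6 lists together named 109 genes, of which 84 had a kept probe and 0 passed over all probes, where 0.118% of all genes did. At an unadjusted p under 0.05, 2 were higher and 2 lower in KO, against 4.16% of all genes in either direction, and in 7 genes the columns did not overlap, against 8.25% of all genes. The medians of the lists lay between 0.01 and 0.06, beside -0.06 for the 9 late sperm genes when Prm1 stands with its brightest probe, A_51_P162984. Among 16 genes of the acrosome and of egg binding, Plcz1, a phospholipase C by which sperm activate the egg, read -1.95 (SE 0.33, adjusted p = 0.0558). Plcz1 passed without WT column 1 (-2.36, adjusted p = 0.00937), reached an adjusted p of up to 0.326 without another column, and read -1.13 with the slide as a block. Izumo1, the sperm protein of gamete fusion, read 0.56 (SE 0.24), and 0.84 with the slide as a block. Among 28 genes of the flagellum, Catsper2, a subunit of the sperm calcium channel, read -0.97 (SE 0.35) with overlapping columns; the slide block gave -1.56. The 5 measured sperm chromatin genes read 0.0038 to 0.43, and the 3 nearest to 0 (H1fnt, H2al2a and Hist1h1t) turned to -0.035, -0.086 and -0.11 in the slide block. The testis histone Hist1h2ba, whose sequence is close to that of other histones, read 0.43, but 0.17 without WT column 1 and 0.91 in the slide block. Of 7 genes of sperm energy metabolism, Ldhal6b, a lactate dehydrogenase relative, read -0.53 (SE 0.28), but -0.19 without WT column 1 and -1.28 with the slide as a block. Gapdhs, the sperm glyceraldehyde phosphate dehydrogenase, read -0.19, and -0.0020 without KO column 3. Of 12 regulators of spermatid genes, Tbpl1, a TBP-related factor needed for spermiogenesis in mice, read 0.57 (SE 0.21), with its 4 probes between 0.19 and 0.57. Among 16 genes of spermatogonia and meiosis, Piwil1, which serves the piRNA pathway, read 0.31 (SE 0.20), and 0.17 without KO column 2.

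**Figure D5:**
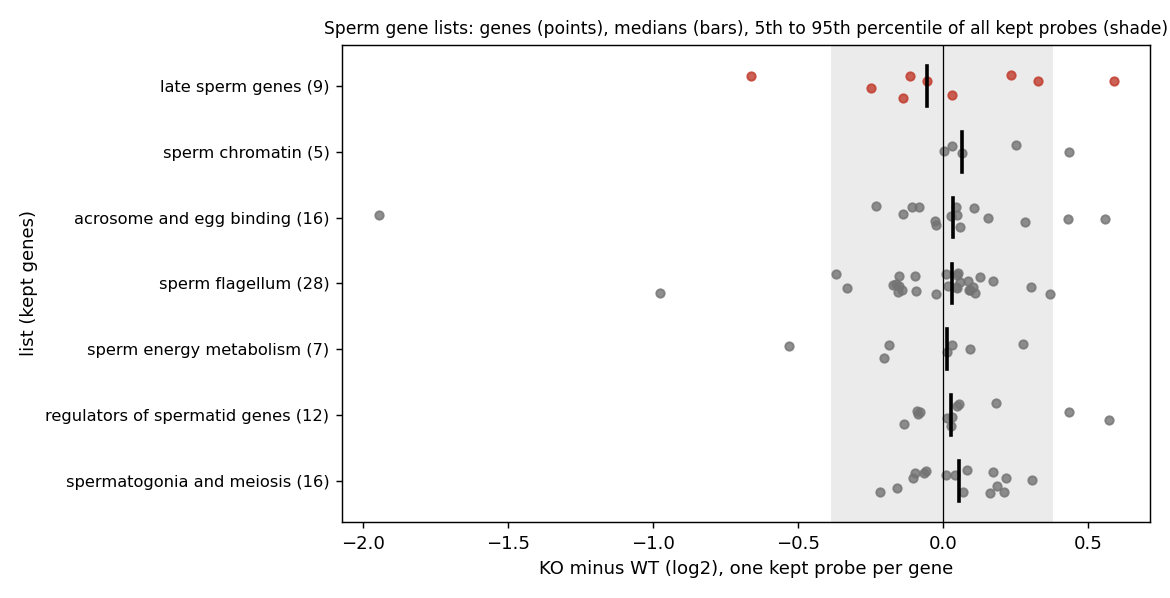
Difference KO minus WT (log2, horizontal axis) of each gene with a kept probe, for the 9 late sperm genes and 6 lists of other sperm genes, with the median of each list as a bar. The shade is the 5th to 95th percentile of all kept probes (-0.38 to 0.38). All list medians lie between -0.06 and 0.06, and Plcz1 at -1.95 is the point farthest from 0.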

How the data were processed

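Per the file headers, the deposited scanner files were made with Agilent Feature Extraction 10.7.3.1 (10.6 per the submitters' processing notes) and hold intensity values per spot, background-subtracted but not normalized between arrays. The authors' deposited matrix holds a log2 value per probe in 6 columns of nearly equal quartiles, with the authors' own log2 ratio and adjusted p-value; the sources used here do not name its tool. Its adjusted p-value (FDR) was under 0.05 for 0 late sperm probes in the authors' deposited table. Each array had 43379 non-control spots, 0 saturated and 397 to 1306 left out as outliers, and 72.6% to 79.4% of probes were well above background; the number of arrays limits the precision. Columns were grouped by name.

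The matrix columns were fitted probe by probe with lmFit and eBayes of limma 3.58.1 (R 4.3.3), adjusted over 32235 kept probes, after a check on simulated data. With 3 columns per genotype an exact permutation test cannot go below 0.1 (two-sided). The members and lists were chosen with earlier results of these data known. List genes stand with their kept probe of highest mean. Up to 4 genes of smallest p per list, and the 3 genes most like the brightest member, were open to naming. Alternatives were the filter, moderation, blocks, 1 probe per gene, left-out columns and the scanner arrays by title. The planned normexp setting on mean signal was run on median signal, the column the files hold. The same column numbers do not pair KO with WT: their deviations correlated at -0.29, -0.18 and -0.33.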

Additional observations from a re-analysis of the deposited data

How the results depend on the processing

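Under all 14 other settings 0 late sperm probes passed, while the count over all kept probes was 57 with all columns, 26 with no filter, 42 with detection on all 6 arrays, 97 with the replicate block, 27 to 81 without a column and 0 with the slide as a block or by title. The replicate number as a block left the median difference of the late sperm probes at 0.03. That median lay between -0.13 and 0.20 when a column was left out. It was 0.23 with detection on all 6 arrays, 0.31 with the slide as a block, 0.28 from processed signals by title and 0.16 from normexp by title. Fewer probes enter the first. The slide block sets KO 2 and KO 3 against WT 1, so its median is of another contrast than that of all columns. The titles group the arrays otherwise than the columns, so the medians by title are of another contrast too. No other cause was tested. No late sperm probe was called in any setting, so a change of sign is a change of an uncalled value. Of the 5 arrays identical in rank to a column, 4 also carried the title of the other genotype. By title, with processed signals and then normexp, the Prm1 probe A_51_P162984 read 0.65 and 0.55, Tnp1 -0.065 and -0.064, Tnp2 0.61 and 0.63, Acr 0.76 and 0.21, Smcp 0.28 and 0.15, Ldhc -0.18 and -0.073, and Pgk2 0.50 and 0.081. With the slide as a block Tnp2 read 0.11, Acr 0.062 and Pgk2 0.20. When a column was left out, Acrv1 read -0.15 to 0.20 (-0.15 without WT 1, -0.12 without KO 2), Tnp2 -0.32 to 0.048 (without WT 2) and Acr -0.13 to 0.038 (without WT 3). Signal near background limits Acr, Pgk2 and Odf1.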

Other observations

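The array titled KO 2, which ranked as none of the matrix columns, was the brightest of the 6 for several late sperm probes. It also had the most outlier spots, 1306, and its Spearman correlation with the columns was 0.952 to 0.962. What sets this array apart was not tested. Relative to the array's 75th percentile, the Prm1 probes A_52_P533280 and A_52_P533287 read 1.01 and 1.75 there, against 0.386 to 0.710 and 0.473 to 0.884 on the other 5 arrays. Prm2 read 1.0 there, against 0.409 to 0.744 on the others, and Acr 0.195, against 0.0581 to 0.10. The Prm1 probe A_51_P162984 (1.24) and Tnp1 (0.187) were also highest there, while Tnp2, Acrv1, Smcp, Ldhc and Pgk2 were not. The Odf1 probe A_52_P294490 was well above background on that array alone, at a ratio of 0.0909. Of the 3 Mbd1 probes, A_51_P143224 and A_52_P158923 had intensities of 17.2 and 21.3 on it, while A_52_P131423 had 93.3, the highest of the 6 arrays for that probe.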
